A study of Mus musculus with 12 samples.

Results

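Imprinted genes are expressed from the allele of a single parent, and the choice is set by methylation laid down on the maternal or the paternal copy of a control region in the germ line. Because the other copy stays unmethylated in most somatic cells, such a region should read near 50% methylated in bulk DNA of any tissue. The 39 genes described here are imprinted genes of the mouse and the hosts or neighbors of their control regions, out of 37310 genes with an annotated transcription start (GENCODE vM1, mm9). They were taken as a fixed list of names, which was chosen with earlier results of these data known. For each annotated start all CpG cytosines within 2000 bp on either side were pooled per sample. A start was used where every sample had 20 or more reads, and it was called near 50% where the mean of each of the 4 groups lay from 35% to 65%.

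DNA methylation was measured by enhanced reduced representation bisulfite sequencing (ERRBS), in which DNA cut by MspI is treated with bisulfite and methylated cytosines are read as C. The samples were soft tissues of the oral cavity of female B6C3F1/J mice, the hybrid of C57BL/6 and C3H mice, that entered the study at 8 weeks of age, with 3 samples in each of 4 groups. Control mice received the vehicle DMSO. DBP mice received the tobacco carcinogen dibenzo[a,l]pyrene, also called dibenzo[def,p]chrysene, on the oral cavity in doses of 24 nmol, 3 a week over 5 weeks, and tissue was collected 48 h later. DBP+agent mice were given DBP together with a chemopreventive agent whose name is not in the labels, and DBP+BR extract mice were given DBP and the agent BR extract. The sources do not say whether a sample was a single mouse, and the pooled tissue holds epithelium, muscle and other cells, so the edgeR and permutation p-values given below measure only the spread between these samples, which may be technical.

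Of the 39 genes, 37 had an annotated start, with Kcnq1ot1 and Peg13 having none. A start with 20 or more reads in all 12 samples was found for 31 genes, with 120 of their 169 starts covered. Neighboring starts often held the very same reads, so that the 120 starts made 71 distinct sets of reads. Peg3, Cdh15, Magel2 and Rian reached 20 reads in some samples only, and Usp29 and Mirg in none. Cytosine calls per sample ranged from 3287367 to 7774032 in control, from 7515975 to 7974299 in DBP, from 16908728 to 39615620 in DBP+agent and from 17712547 to 78889043 in DBP+BR extract samples. Depth therefore moved with the groups, and its part in the results was not tested. A read that covers several cytosines counted once for each of them. The libraries kept the strands but not the parent of origin, so the values below do not say which allele was methylated, and a C57BL/6 or C3H variant at a CpG cannot be told apart from methylation.

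At some of the listed genes, neighboring CpGs formed stretches that were all partly methylated. After merging the strands, 363373 CpGs on the autosomes and X had 10 or more reads in every pooled group. A stretch was counted where 8 or more consecutive measured CpGs, each within 200 bp of the next, lay from 20% to 80% in every group with a mean over groups from 30% to 70%. The autosomes held 31 such stretches, and 8 of them lay within a listed gene or within 2000 bp of its start. Of the 11 stretches with 10 or more CpGs, 4 were at listed genes. No stretch lay at Snrpn, Mest, Plagl1, Impact, H19 or Meg3. As a mean over groups, 25.5% of all measured autosomal CpGs and 49.1% of those on X lay from 20% to 80%. The share of measured CpGs that lie in listed genes was not counted. The 4 stretches outside coding exons are printed here because they show how densely the partly methylated CpGs lie in these regions. Sequences are from mm9, plus strand, 5′ to 3′, with the CpGs that were measured in capitals.
chr11:22872609-22872895 (Zrsr1 and Commd1, 12 measured CpGs): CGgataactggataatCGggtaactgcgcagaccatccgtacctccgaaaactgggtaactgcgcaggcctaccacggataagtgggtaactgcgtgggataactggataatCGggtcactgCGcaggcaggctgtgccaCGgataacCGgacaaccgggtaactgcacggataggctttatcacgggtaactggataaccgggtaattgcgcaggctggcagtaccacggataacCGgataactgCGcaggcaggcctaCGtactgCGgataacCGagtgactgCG
chr7:150481374-150481523 (intron of Kcnq1, 11 measured CpGs): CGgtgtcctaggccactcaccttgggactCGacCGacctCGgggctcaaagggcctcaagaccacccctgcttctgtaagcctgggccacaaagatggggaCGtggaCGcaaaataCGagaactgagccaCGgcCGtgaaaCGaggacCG
chr15:72640310-72640527 (intron of Trappc9, 9 measured CpGs): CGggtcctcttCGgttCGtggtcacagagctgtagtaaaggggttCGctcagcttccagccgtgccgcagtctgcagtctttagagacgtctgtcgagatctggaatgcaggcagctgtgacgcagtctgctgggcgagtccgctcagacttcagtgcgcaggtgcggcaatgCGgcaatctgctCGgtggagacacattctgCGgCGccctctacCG
chr11:11925658-11925807 (intron of Grb10, 8 measured CpGs): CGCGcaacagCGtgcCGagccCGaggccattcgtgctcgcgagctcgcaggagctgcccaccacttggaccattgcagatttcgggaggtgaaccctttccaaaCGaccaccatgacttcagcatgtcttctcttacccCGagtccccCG

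The stretch beside the start of Zrsr1, a splicing factor related gene inside Commd1, held 12 CpGs and overlapped an exon of the short transcript Commd1-006. Its single CpGs ranged from 31.5% to 58.2% as a mean over groups. With the reads of each group pooled it read 40.8% in control, 48.5% in DBP, 28.3% in DBP+agent and 38.6% in DBP+BR extract. The Kcnq1 stretch held 11 CpGs at 46.4%, 38.9%, 35.5% and 40.5% in the same order. The Trappc9 stretch held 9 CpGs at 47.8%, 46.7%, 46.6% and 30.8%. Trappc9 is the host of the imprinted noncoding RNA Peg13, which has no start in the annotation and was not placed. The Grb10 stretch held 8 CpGs at 51.5%, 42.02%, 36.8% and 37.4%. The other 4 stretches lay in coding exons, of Gnas at chr2:174124652-174125016 (11 CpGs) and chr2:174125190-174125596 (8 CpGs), of Nnat at chr2:157385834-157386011 (10 CpGs), and of Nap1l5 at chr6:58856628-58856763 (8 CpGs).

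ZFP57, a zinc finger protein that keeps imprints methylated after fertilization, is known to bind the letters TGCCGC when they are methylated. This motif, read as TGCCGC or as GCGGCA on the other strand, was counted in the 501 bases around the middle of each stretch. It occurred in 6 of the 8 stretches at listed genes and in 6 of the 23 other autosomal stretches. The Nnat and Trappc9 windows held 4 matches each, the Kcnq1 window and the first Gnas window held 3, and the second Gnas window and the Nap1l5 window held 2. No match was present around the Zrsr1 and Grb10 stretches. Of all 86916 annotated starts searched with the same window, 21.0% held a match and 4.65% held 2 or more. The motif contains a CpG and the stretches are dense in CpGs, so these counts are a description only.

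In all 4 groups, 10 listed genes had a start near 50%. They were Grb10, Nnat, Nespas, Gnas, Airn and Nap1l5 of the genes listed as having a maternally methylated control region at a promoter. Nespas passed only at Nespas-003, beside the upstream start Gnas-009, and not at Nespas-001 or Nespas-002. The others were H19 and Dlk1 of the clusters with a paternally methylated region, Mkrn3 of the other cluster genes, and Blcap, whose start lies beside that of Nnat. These 10 genes were among 31 covered. Over all genes, 528 of 14275 covered genes (3.70%) had such a start. Of all starts, 956 of 36832 (2.60%) were near 50%, against 28 of 120 for the listed genes, or 15 of their 71 distinct sets of reads. The median of all covered starts was 7.19% and that of the listed genes was 32.5%. Of covered starts on the X chromosome, of which female cells inactivate a single copy, 17.3% were near 50%, against 2.18% on the autosomes.

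**Figure D1:**
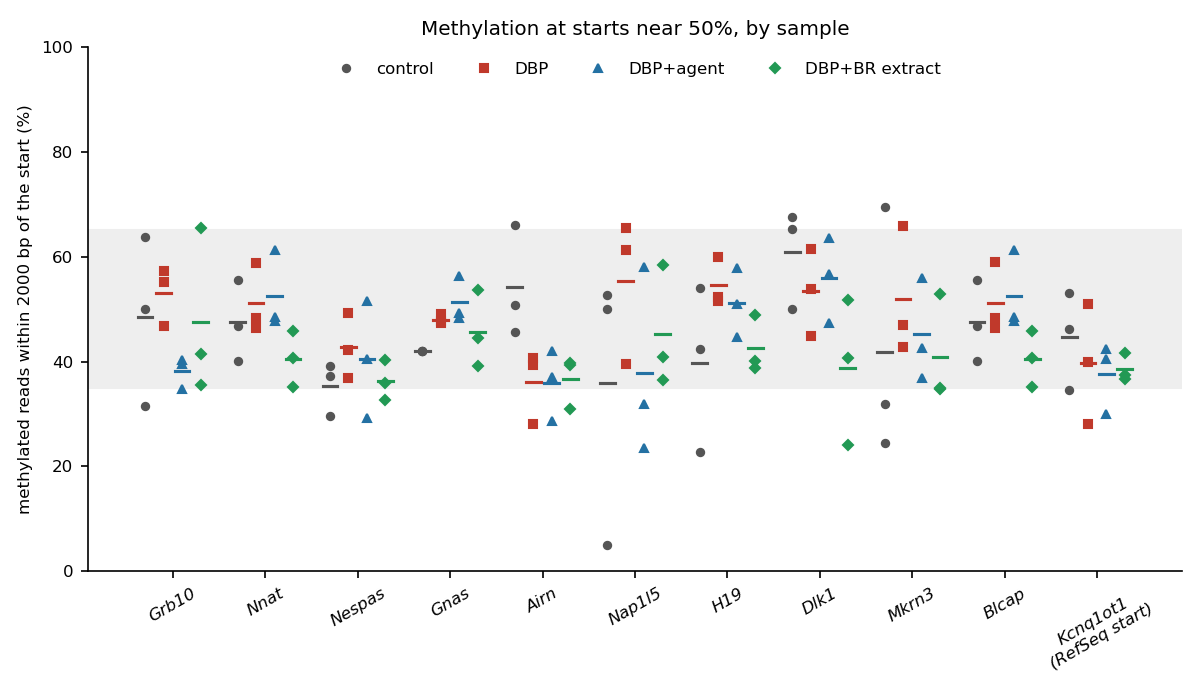
Percentage of methylated reads within 2000 bp of a start, in each sample (points) and as the group mean (bars), for the 10 genes near 50% in all groups and for the RefSeq start of Kcnq1ot1; the shaded band runs from 35% to 65%. Nnat, Gnas and Blcap had all 12 samples in the band, while Nap1l5 ranged from 5.0% to 65.5%.

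Nnat, which encodes the small membrane protein neuronatin, lies inside Blcap and stayed within the limits in every sample. At its start nearest 50% (Nnat-002, position 157385814 of chromosome 2), the control samples read 46.8%, 55.6% and 40.2% and the DBP samples 58.8%, 46.5% and 48.3%. The DBP+agent samples read 48.4%, 47.7% and 61.3%, and the DBP+BR extract samples 45.8%, 40.6% and 35.2%. The group means ranged from 40.5% to 52.5%. Of 32 measured CpGs in the window, 31 lay between 20% and 80%. Blcap has a start (Blcap-004) within the same reads, whereas its main start Blcap-003 read 3.4% over the 4 groups, and 11 of its 11 measured CpGs were under 20%.

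Gnas, which encodes the stimulatory G protein alpha subunit and is known for several promoters with different imprints, differed between its own starts. The start at position 174123360 of chromosome 2 read 42.0%, 42.0% and 42.0% in control, 47.7%, 47.3% and 49.0% in DBP, 48.4%, 49.2% and 56.3% in DBP+agent, and 44.5%, 39.1% and 53.6% in DBP+BR extract. Here all 31 measured CpGs lay between 20% and 80%, and every sample had 293 or more reads. The starts near position 174153200 read about 26.0% over the groups and those near 174155590 about 16.8%, where 17 of 34 CpGs were under 20%. The upstream start Gnas-009 (position 174110757) read 35.3% ± 5.0 (SD, n = 3) in control, 42.7% ± 6.3 in DBP, 40.1% ± 10.8 in DBP+agent and 36.3% ± 3.9 in DBP+BR extract, close to the lower limit.

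Nespas, a noncoding RNA antisense to Gnas, was near 50% only at Nespas-003 (position 174110936), where nearly the same reads as those of Gnas-009 were counted. Its samples there read 37.2%, 39.2% and 29.7% in control, 49.3%, 36.8% and 42.1% in DBP, 40.4%, 29.2% and 51.6% in DBP+agent, and 40.2%, 35.9% and 32.6% in DBP+BR extract. The Nespas start whose mean was nearest 50%, Nespas-002 at position 174120937, did not hold in all groups. It read 58.4%, 61.5% and 41.8% in control and 40.2%, 48.5% and 86.4% in DBP. DBP+agent samples read 55.1%, 22.2% and 37.9% there, and DBP+BR extract samples 17.5%, 27.9% and 20.7%, all below every control and DBP sample. This window rested on 4 CpGs.

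Grb10, an adaptor protein that restrains insulin receptor signaling, showed a sharp contrast within the gene. The start Grb10-002 at position 11926735 of chromosome 11 read 50.0%, 63.8% and 31.6% in control, 57.2%, 55.2% and 46.8% in DBP, 39.6%, 40.3% and 34.7% in DBP+agent, and 35.5%, 65.4% and 41.5% in DBP+BR extract. All 28 measured CpGs were between 20% and 80%. At the start at position 11937404 every sample read from 5.5% to 9.1%, and 60 of 71 CpGs were under 20%. Airn, the noncoding RNA that silences Igf2r in cis, read 45.6%, 50.8% and 66.0% in control, 28.0%, 40.8% and 39.3% in DBP, 37.0%, 28.6% and 42.1% in DBP+agent, and 39.8%, 30.9% and 39.3% in DBP+BR extract, with the control mean the highest. Its target Igf2r, the receptor that clears IGF2, read 19.3% at its main start. Nap1l5, related to nucleosome assembly proteins, was the least steady, with 52.7%, 50.0% and 5.0% in control, 39.6%, 65.5% and 61.2% in DBP, 31.8%, 58.1% and 23.4% in DBP+agent, and 40.9%, 36.5% and 58.4% in DBP+BR extract. The lowest value was that of control 3, the shallowest library, with 20 reads in the window.

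In the clusters with a paternally methylated region, H19, a maternally expressed noncoding RNA, read 54.0%, 22.7% and 42.3% in control, 52.4%, 51.5% and 60% in DBP, 44.6%, 51.1% and 57.8% in DBP+agent, and 40.1%, 38.7% and 48.9% in DBP+BR extract at H19-002. That window held 2 measured CpGs, and the control 2 value rested on 22 reads. The H19 starts near position 149762443 were higher, with means from 54.8% to 65.5%. Igf2, the paternally expressed growth factor beside H19, was low at 6 of its 7 read sets, from 6.1% to 16.3%, and high at Igf2-004 with 64.1%. Meg3, a maternally expressed noncoding RNA, read from 62.5% to 62.8%, with the DBP mean above 65% at each start. Dlk1, a paternally expressed transmembrane protein of the Notch family, read 13.03% at its main starts. At Dlk1-009 it read 50.0%, 65.3% and 67.6% in control, 53.8%, 44.9% and 61.5% in DBP, 63.6%, 47.3% and 56.7% in DBP+agent, and 51.7%, 40.6% and 24.1% in DBP+BR extract. Rasgrf1, a guanine nucleotide exchange factor, read 5.8%.

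Among the other cluster genes, Mkrn3, a RING finger protein of the Snrpn cluster, read 69.4%, 24.4% and 31.8% in control, 65.9%, 47.1% and 42.9% in DBP, 42.7%, 56.0% and 36.9% in DBP+agent, and 52.9%, 34.7% and 34.9% in DBP+BR extract. Only 6 of its 12 samples were within the limits, and the control mean of 41.9% had an SD of 24.1. The promoters of the channel gene Kcnq1 (6.8%), of Phlda2 (6.2%), a regulator of placental growth, and of the ubiquitin ligase Ube3a (6.6%) were low, with 14.5% as the highest value of any sample. Cdkn1c, a cell cycle inhibitor, read 27.4% and Ndn, a MAGE family gene, 26.8%. Of the host genes, H13 read 11.0%, Trappc9 3.4% and the main start of Commd1 6.5%.

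**Figure D2:**
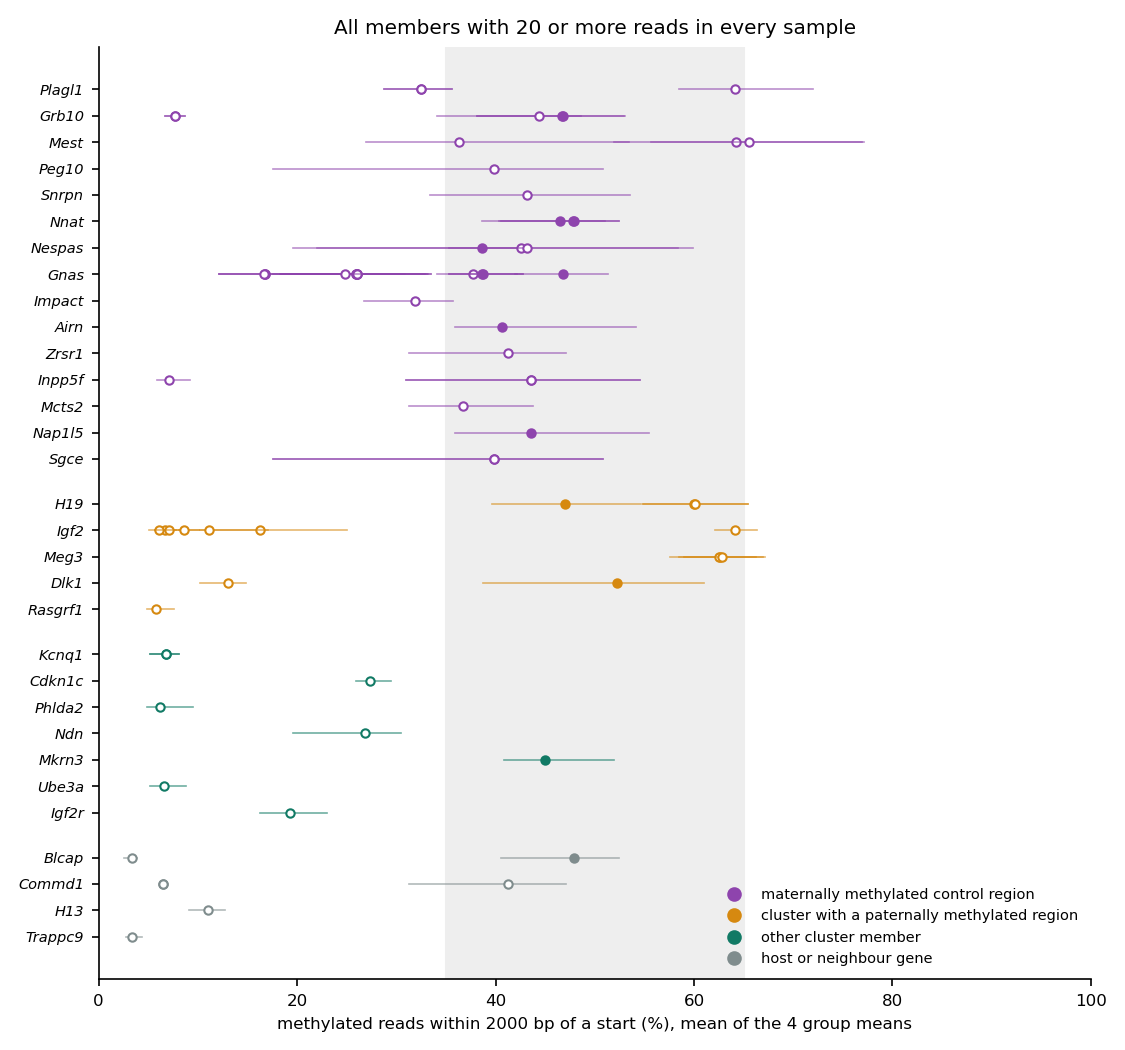
Percentage of methylated reads within 2000 bp of a start for the 31 covered genes, by role; each circle is the mean of the 4 group means of a distinct set of reads, each line runs from the lowest to the highest group mean, and filled circles were near 50% in all groups (shaded, 35% to 65%). Every gene listed with a maternally methylated control region except Impact has a circle in the band. That of Plagl1 rests on 1 CpG, and its starts with 14 CpGs lie below the band. The circles of Kcnq1, Phlda2, Ube3a, Igf2r, Rasgrf1, H13 and Trappc9 lie below 20%.

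A further 12 covered genes were within the limits in some of the groups, 9 of them in 3 groups, 2 in 2 groups and Impact in 1. In each group taken alone, 18 genes were within the limits in control, 19 in DBP, 16 in DBP+agent and 19 in DBP+BR extract. In 9 genes, no group was within the limits at any start. Plagl1, a zinc finger transcription factor, read 32.5% over the groups at its lowest starts, on 14 CpGs, and 64.1% at its highest start, Plagl1-025, on 1 CpG. Impact, a regulator of translation, read 26.7%, 35.7%, 34.2% and 31.1% in control, DBP, DBP+agent and DBP+BR extract. Zrsr1 was outside in DBP+agent with a mean of 31.2%, and Snrpn, which encodes a splicing protein, in DBP+BR extract with 33.4%. Peg10, a gene derived from a retrotransposon, and Sgce, epsilon-sarcoglycan, share a window that was outside in control with 17.5%. Inpp5f, a phosphoinositide phosphatase, read 54.5%, 47.6%, 30.9% and 41.1% in control, DBP, DBP+agent and DBP+BR extract at its inner start Inpp5f-005, and 7.1% over the groups at its main start Inpp5f-002. When only the mean of the 4 group means had to lie within the limits, an alternative added after the data were seen, 21 of the 31 genes passed, against 6.85% of all covered genes and 5.01% of all covered starts.

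Kcnq1ot1 is the paternally expressed antisense RNA whose promoter is the control region of the Kcnq1 cluster. The 300 bases around its RefSeq start matched mm9 exactly, on the minus strand at chr7:150482403-150482702, within an intron of Kcnq1. The cytosines within 2000 bp of this start read 46.3%, 53.0% and 34.5% in control, 39.9%, 50.9% and 28.1% in DBP, 30.04%, 40.4% and 42.4% in DBP+agent, and 37.4%, 36.6% and 41.6% in DBP+BR extract. The group means were 44.6% ± 9.4, 39.7% ± 11.4, 37.6% ± 6.6 and 38.5% ± 2.7 (SD, n = 3), so this start was near 50% in each group, and 11 of 11 CpGs lay between 20% and 80%. These 11 CpGs are those printed above for the Kcnq1 stretch, at chr7:150481374-150481523, and lie outside the 300 matched bases. Of the 9 CpGs within those 300 bases, 0 were measured, so the values do not come from the promoter sequence itself.

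A window can average near 50% either because its CpGs are all partly methylated or because low and high CpGs are mixed. Among the 10 read sets of listed genes near 50% with 10 or more measured CpGs, the share of CpGs between 20% and 80% ranged from 80.6% to 100%, with a median of 96.9%. These read sets came from only 5 genes, Nnat with Blcap, Gnas with Nespas, and Grb10. Many of their windows overlap, so they are not 10 separate regions. Over the 214 autosomal starts near 50% with as many CpGs, the median share was 61.2% and the range from 0.0% to 100%. These starts include those of the listed genes, and starts that share reads were each counted. At 53 such starts on X the median was 92.3%.

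**Figure D3:**
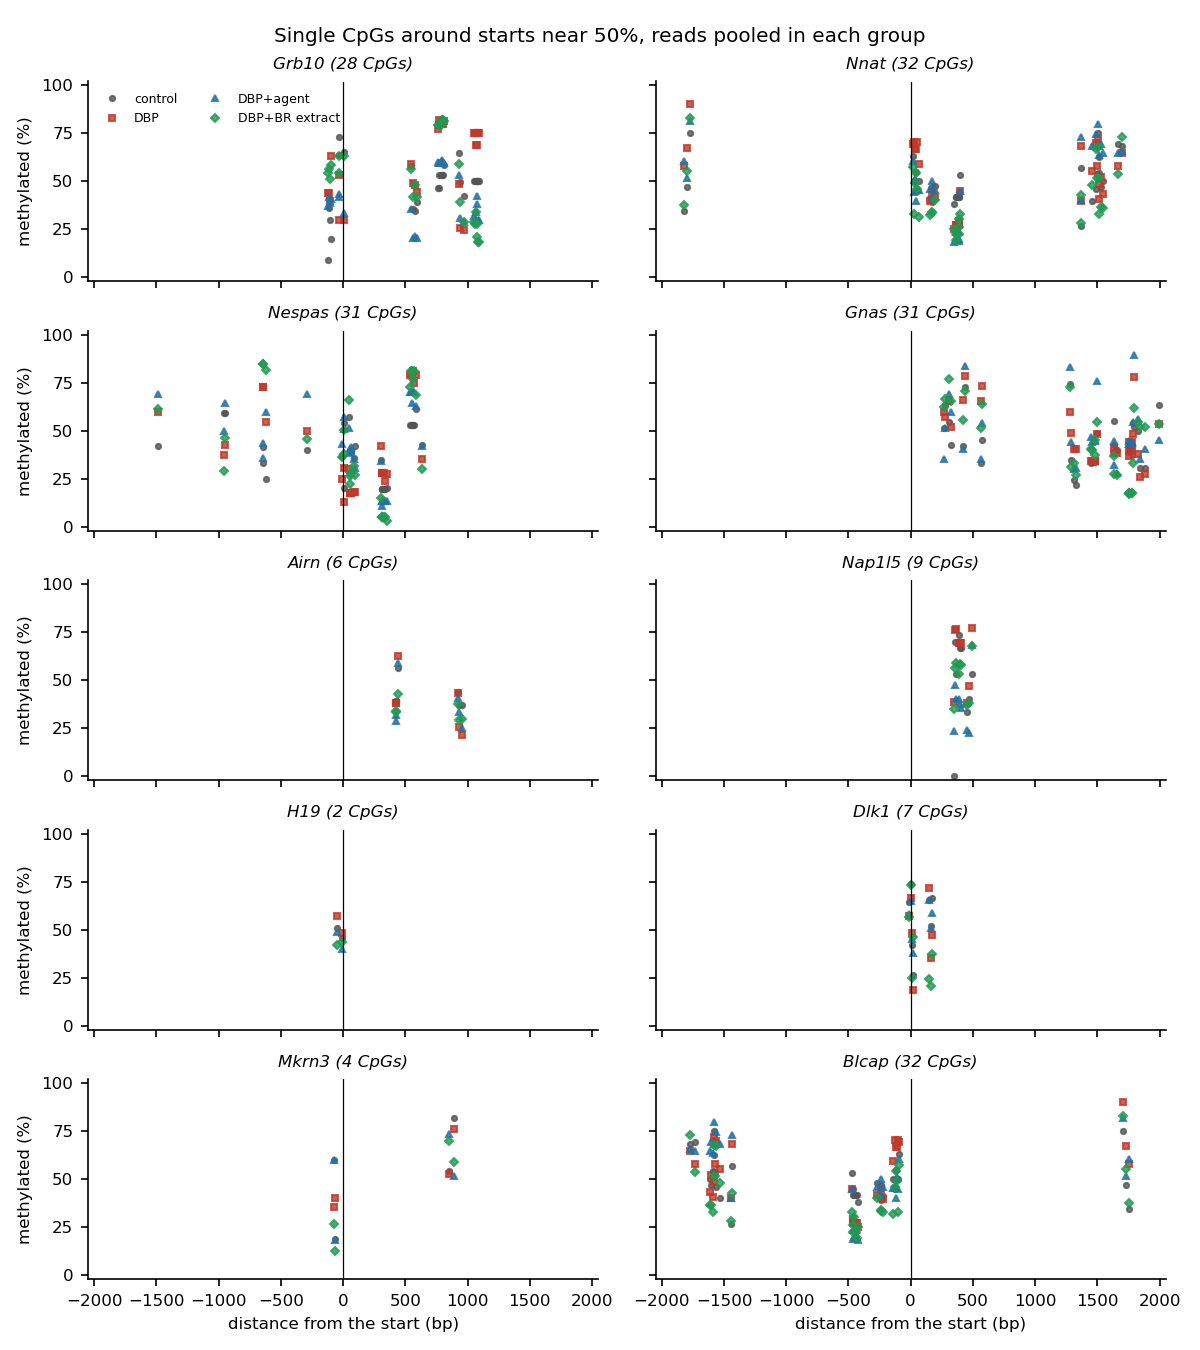
Methylation of single CpGs (reads pooled in each group, %) by distance in bp from the start, in the direction of transcription, for the 10 genes near 50%; points are the 4 groups. In Nnat, Gnas and Grb10, 28 to 32 CpGs each lie mostly between 20% and 80%, whereas H19, Mkrn3 and Airn rest on 2, 4 and 6 CpGs.

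The spread between samples was larger than read counts alone allow. Over the listed starts near 50%, the SD over 12 samples had a median of 7.94 points, which was 3.35 times the SD expected from counting. All starts near 50% had a median SD of 9.12 points and a ratio of 2.11, at a median of 50 reads in the shallowest sample against 132 for the listed starts. The SD over 12 samples also includes differences between groups, and a read over several CpGs counts once for each. Between replicates of the same group, the mean chi-square over all starts (1 degree of freedom) ranged from 1.815 to 27.29. From counting alone it would be about 1. Tests that treat each read as independent therefore give p-values that are too small. Logistic regression with a likelihood ratio test was used to compare groups, with a start called at q below 0.01 and a difference of pooled percentages over 10 points. The edgeR quasi-likelihood test, which takes the spread between samples into account, called no start in any comparison (0.00%). The lowest edgeR q-value of a listed gene was 0.653, 0.999 and 1.00 in the 3 comparisons.

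DBP against control addressed whether the carcinogen alone moved these regions. Methylation was higher in DBP at the shared promoter of Peg10 and Sgce and lower at Airn and at a downstream start of Gnas. In all, 13 of 120 listed starts were called, in 4 sets of reads and 4 genes, 7 higher and 6 lower. Over all starts 625 of 36998 were called (1.69%), and among the starts near 50% in all groups 5.23%, against 5 of the 28 listed ones. Those 5 were the Airn starts, which all hold the same reads, and the 28 listed starts made 15 distinct sets of reads. The 13 starts had groups that did not overlap, as did 31 of the 120 listed starts and 10.8% of all starts. edgeR gave an unadjusted p under 0.05 for 26 of the 120 listed starts and for 5.88% of all starts. Starts that hold the same reads were each counted in these numbers, as in those of the other comparisons.

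The Peg10 and Sgce window read 34.8%, 13.8% and 4.0% in control samples on 66, 29 and 25 reads, and 44.2%, 63.9% and 44.4% in DBP samples on 95 to 99 reads. Every DBP sample was above every control sample. The pooled difference was 27.5 points (logistic regression, q = 2.1e-05), from 23.3% to 50.9%, and the means differed by 33.3 points (two-sided exact permutation p = 0.10, the smallest that 3 against 3 samples allow). DBP+agent samples read from 41.1% to 46.5% and DBP+BR extract samples from 39.3% to 50.1%, so the control samples stood apart from the other 9. The call held without each of the 6 samples in turn, with a difference of 41.6 points without control replicate 1. The window held only 5 measured CpGs. It was not tested at a minimum of 50 reads or with the study's filter on single cytosines.

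Airn fell by 15.9 points as pooled percentages (logistic regression, q = 0.0029), from a mean of 54.2% ± 10.6 in control to 36.0% ± 7.0 in DBP (SD, n = 3). Gnas-016, at position 174153524, read 30.6%, 27.6% and 33.3% in control and 18.5%, 20.7% and 21.6% in DBP, a fall by 10.2 points (q = 1.0e-08). It read 20.6%, 15.9% and 16.3% in DBP+agent and 31.4%, 39.3% and 21.9% in DBP+BR extract. The Airn and Gnas calls each held in 3 of the 6 fits that left out a sample. The Airn call was lost without control replicate 2, control replicate 3 or DBP replicate 1, and with a 1000 bp window (-9.5 points), and the Gnas call without control replicate 1, control replicate 3 or DBP replicate 1. The count of 13 became 22 without control replicate 1, 7 without control replicate 3 and 20 without DBP replicate 3.

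DBP+agent against DBP addressed the effect of the unnamed agent in mice given DBP. The 11 called listed starts, of 126 tested, were all lower in DBP+agent, at Zrsr1, Commd1, Grb10, Inpp5f, Nap1l5, Magel2 and Nespas. They made 10 of 76 distinct sets of reads. Over all starts 764 of 44201 were called (1.73%), 385 higher and 379 lower, and among those near 50% it was 9.62%, against 3 of the 28 listed ones. Of the 11 starts, 8 had groups that did not overlap, as did 15 of the 126 listed starts and 9.36% of all starts. edgeR gave an unadjusted p under 0.05 for 10 of the 126 listed starts and for 3.30% of all starts.

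The window shared by Zrsr1 and Commd1-006 read 49.8%, 48.0% and 43.4% in DBP and 34.1%, 31.2% and 28.4% in DBP+agent. This was a fall by 15.02 points as pooled percentages (logistic regression, q = 5.9e-30), on 590 or more reads per sample, and controls read from 39.9% to 49.3%. Grb10-002 fell by 14.9 points (q = 2.2e-17) and Inpp5f-005 by 16.5 points (q = 2.4e-06), with no overlap between the groups. These calls held without each of the 6 samples, but with the study's filter on single cytosines Grb10-002 fell by 8.7 points and was not called. Magel2, a MAGE family gene covered in these groups but not in every control sample, read 69.7%, 70.9% and 65.1% in DBP and 56.4%, 53.4% and 63.6% in DBP+agent. The groups overlapped at Nap1l5 and Nespas. The Nespas-002 difference of -10.7 points became -24.4 points without DBP replicate 1 and -24.6 points without DBP+agent replicate 1. Without DBP replicate 3, which read 86.4%, the difference was 1.2 points in the other direction, and the call was also lost without DBP+agent replicate 2 or 3. The Magel2 call was lost without DBP replicate 2.

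DBP+BR extract against DBP addressed the extract in the same way, and shares the DBP samples with the previous comparison. Methylation was lower at Nespas, Snrpn, Nnat, Blcap and Dlk1 and higher at the inner start of Mest and at the downstream starts of Gnas. In all, 33 of 126 listed starts were called, in 23 of 76 distinct sets of reads and in 12 genes, 11 starts higher and 22 lower. Over all starts 1858 of 43928 were called (4.23%), and among those near 50% it was 19%, against 14 of the 28 listed ones. Of the 33 starts, 21 had groups that did not overlap, as did 29 of the 126 listed starts and 10.2% of all starts. edgeR gave an unadjusted p under 0.05 for 14 of the 126 listed starts and for 3.55% of all starts.

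Nespas-001 at position 174120890 read 39.6%, 50.0% and 90.0% in DBP and 12.1%, 28.0% and 18.6% in DBP+BR extract, with every extract sample below every DBP sample. The pooled difference was a fall by 36.5 points (logistic regression, q = 5.8e-33), and the call held without each of the 6 samples, with a fall by 23.8 points without DBP replicate 3, the sample at 90.0%. Mest, a hydrolase-like gene expressed from the paternal allele, read 29.7%, 27.3% and 42.9% at Mest-001 in DBP and 52.8%, 59.8% and 47.8% in DBP+BR extract, 20.7 points higher as pooled percentages (q = 5.7e-07), and this call also held without each sample. At its upstream start Mest-004 the pooled value was 17.5 points lower, with overlapping groups. Snrpn read 47.9%, 59.1% and 53.7% in DBP and 36.9%, 16.3% and 47.0% in DBP+BR extract, which fell by 18.95 points (q = 1.8e-21). Nnat fell by 10.1 points and Gnas-015, at position 174153071, rose by 13.1 points, from 21.3% ± 1.8 to 33.5% ± 9.7 (SD, n = 3), where the highest DBP and the lowest extract sample both read 22.4%. Dlk1-009 was 18.3 points lower, with overlapping groups. The Snrpn call was lost without DBP+BR extract replicate 2, where it fell by 9.6 points, and it fell by 28.9 points without replicate 3 of that group. The Dlk1 call was lost without DBP+BR extract replicate 3 (-9.4 points) and the Gnas-015 call without replicate 1 (8.4 points) or with a 1000 bp window (4.3 points). The Nnat call was lost without DBP replicate 1 (-6.3 points), without DBP+BR extract replicate 3 (-6.8 points) and with the study's filter on single cytosines (-8.5 points).

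**Figure D4:**
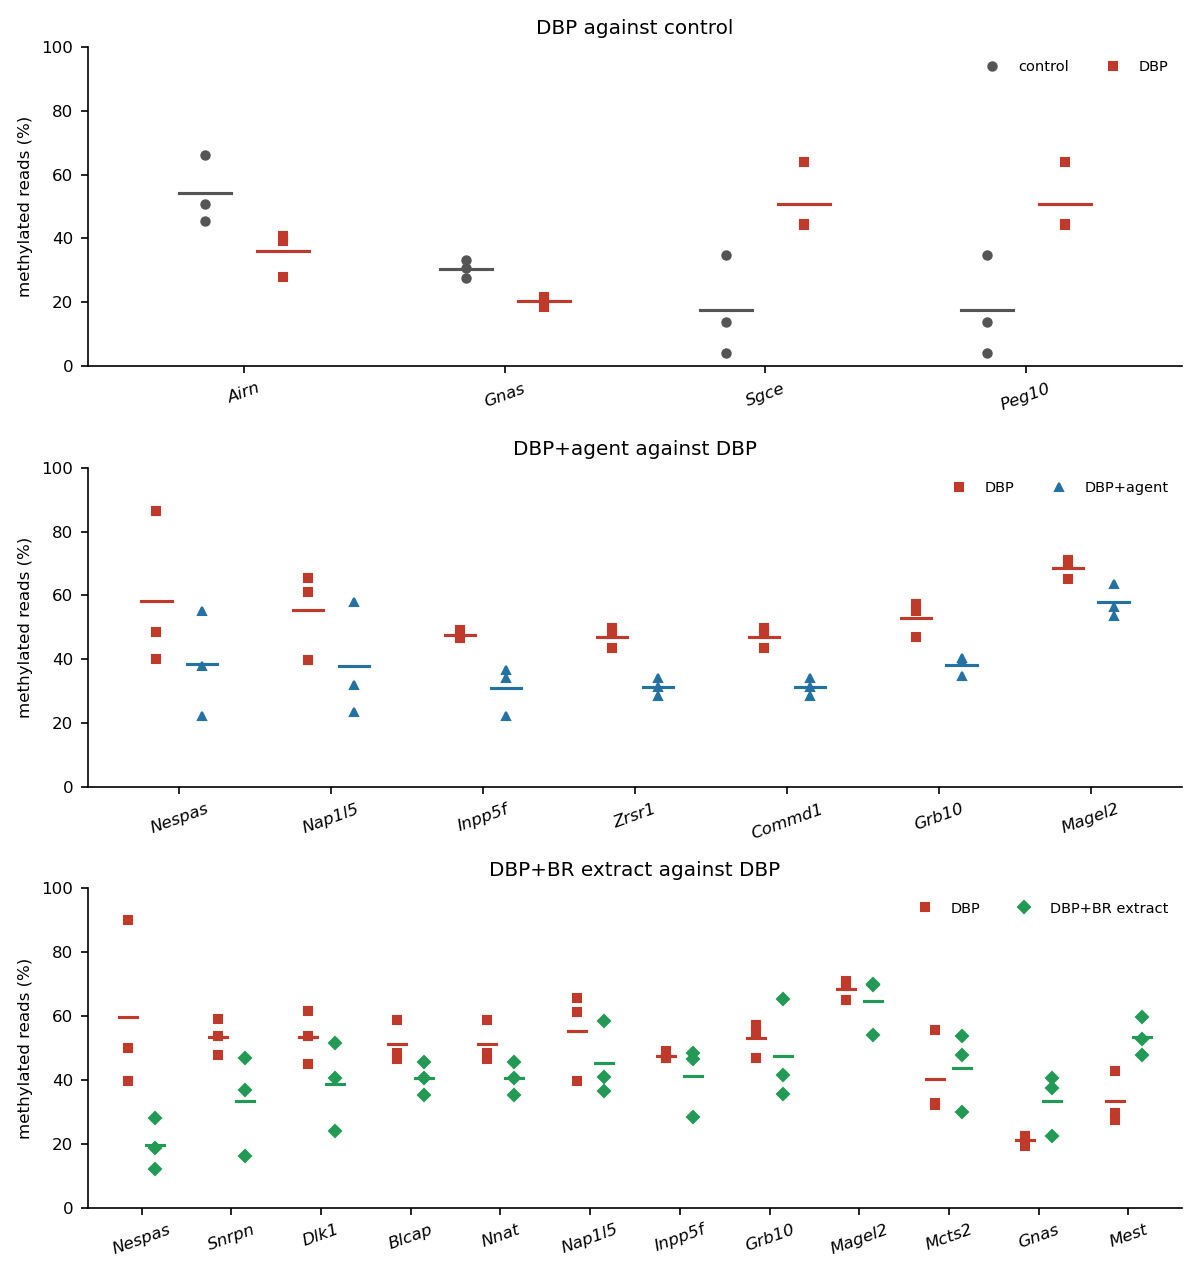
Percentage of methylated reads within 2000 bp of the start with the lowest p-value of each called gene, in the samples of both groups (points) with the group mean (bars), for the 3 comparisons. Peg10 and Sgce share their reads, as do Zrsr1 and Commd1, and Nnat and Blcap nearly do; the groups overlap at Nap1l5, Grb10, Magel2, Inpp5f, Mcts2 and Dlk1 in DBP+BR extract against DBP.

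For Mcts2, a retrogene within H13, and for Magel2, Inpp5f, Grb10 and Nap1l5 the groups overlapped and the sample means differed by less than the pooled percentages. DBP+BR extract replicate 1, the deepest library, supplied most of the calls of its group over all cytosines. Its share differed between windows, and at the Grb10 stretch it held 473 reads, against 214 and 458 in replicates 2 and 3. Magel2 fell by 12.3 points as pooled percentages but by 4.0 points as sample means, and without replicate 1 the difference was 1.1 points in the other direction. Mcts2 rose by 10.8 points as pooled percentages, and was 5.0 points lower without it. Without it the differences of Nap1l5, Inpp5f and Grb10-002 were -4.4, -0.31 and -3.3 points and were not called. The count of 33 became 18 without DBP replicate 1 and 21 without DBP+BR extract replicate 3.

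Beyond the listed genes, 28 other imprinted genes were examined, and 0 of the 19 covered genes were near 50% in all groups. Whether their starts lie at a methylated control region was not tested. Their covered starts had a median of 7.5%, and Peg12 read 23.6%. Slc38a4 and Slc22a18 were covered in some samples only, with a start of each at 45.1% and 46.3% as DBP means. Called starts of the 28 genes were 0 of 49, 0 of 52 and 3 of 51 in the 3 comparisons. The 3 were Ampd3 starts, lower in DBP+BR extract. Of the factors that maintain imprints, Trim28 (3.3%) and Ctcf (4.1%) were low, Dppa3 read 64.98%, Zfp57 was covered in some samples only, and no start of theirs was called. Cell type markers were few at this coverage, since no start of the epithelial genes Krt5, Krt14 and Trp63, of the immune genes Ptprc and Cd3e or of the endothelial gene Pecam1 was covered in all samples. Of the muscle genes, Ckm and Acta1 read 50.7% and 41.3% in DBP against 43.2% and 34.8% in DBP+agent and 41.2% and 35.4% in DBP+BR extract, whereas Myod1 read 11.7% in DBP, 13.7% in DBP+agent and 13.8% in DBP+BR extract. Among these markers, the collagen gene Col1a1 was called 11.01 points higher in DBP+agent than in DBP, at 1 of its 5 covered starts, and Ckm was called lower in DBP+BR extract, and the part of cell composition in the values above was not tested.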

How the data were processed

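DNA methylation was measured by ERRBS in 12 samples, 3 in each of 4 groups taken from the sample labels. Reads of 50 bp were trimmed with Trim Galore 0.3.3 and mapped to mm9 with Bismark 0.10.1, per the labels. The authors deposited, for each CpG cytosine and strand, counts of methylated and unmethylated reads without normalization. The deposited percent column equalled the value from the counts and served only as a check. All 5202461 positions were CpG cytosines of mm9.

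The counts within 2000 bp of each of 86992 distinct GENCODE vM1 starts were pooled per sample in Python 3.11.15 with NumPy 2.4.6, and tested over all starts with 20 or more reads in each sample compared. The test was a logistic regression with a likelihood ratio test, Benjamini-Hochberg q-values over all starts, and thresholds of 0.01 and 10 points. The study compared single CpGs with methylKit, after dropping cytosines under 10 reads or above the 99.9th percentile, scaling coverage and merging strands. These steps were not part of the main test here, and the filter was tried as an alternative. edgeR 4.0.16 (R 4.3.3) gave the alternative quasi-likelihood test at q below 0.05. For single starts a two-sided exact permutation test over samples was added. The scripts were tested on simulated data. Replicate libraries all differed by more than counting noise. Values are given for each gene near 50% in all groups at its start nearest 50%, each gene with a called start is named, and the other genes are given by range and count. The genes and lists were chosen with earlier results of these data known. Counts of reads cover counting error only, and PCR duplicates cannot be recognized.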

Additional observations from a re-analysis of the deposited data

How the results depend on the processing

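The number of listed genes near 50% in all groups, 10, was 4 with limits of 40% to 60%, 17 with 30% to 70%, 5 with a 500 bp window, 6 at a minimum of 50 reads, 3 with the study's filter on single cytosines and 3 where every sample had to lie within the limits. It was 21 where only the mean of the 4 group means had to, which was chosen after seeing the data. Leaving out a sample gave 5 to 11 genes, the lowest without control replicate 1. The called starts, 13, 11 and 33 for DBP against control, DBP+agent against DBP and DBP+BR extract against DBP, were 0 in each with edgeR and with an F test whose spread was estimated per start. Starts with an unadjusted p under 0.05 numbered 7053, 11454 and 16989 by the likelihood ratio test, 2177, 1458 and 1559 by edgeR and 701, 872 and 1443 by the F test. With a difference over 25 points the counts were 7, 0 and 2. For DBP against control the count was 8 with a 1000 bp window and 6 at 50 reads. With the study's filter on single cytosines it was 15, in Gnas, Nespas and Snrpn. The called starts of Airn, Peg10 and Sgce were not tested under that filter. Leaving out a sample gave 7 to 22, 9 to 14 and 18 to 35 starts. The cause of these changes was not tested. With a replicate block the counts were 13, 11 and 28. Deviations of same-numbered samples correlated between -0.04 and 0.04, so the numbers are not taken as pairs. The differences that turned when a sample was left out were Nespas-002 in DBP+agent against DBP (from -24.6 to 1.22 points, the latter without DBP replicate 3), and in DBP+BR extract against DBP Mcts2 (from -4.99 to 17.9) and Magel2 (from -13.9 to 1.11), both turning without DBP+BR extract replicate 1. Depth limits the control samples most, where several windows rest on 20 to 30 reads.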

Other observations

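Partly methylated stretches of the same length also occurred away from the listed genes. These were named after their values were seen. A coding exon of Nfatc4, a transcription factor of the NFAT family, held 12 CpGs at chr14:56445615-56445963, as many as the Zrsr1 stretch, with 53.96% in control, 43.9% in DBP, 47.97% in DBP+agent and 53.9% in DBP+BR extract as pooled reads. The potassium channel gene Kcng4 held 11 CpGs at chr8:122157108-122157334, with 62.95%, 52.3%, 49.02% and 51.01% in the same order. Parp10, a mono-ADP-ribosyltransferase, held 11 CpGs at chr15:76063895-76064254, with 55.3%, 55.9%, 51.9% and 51.3%. A stretch beside the start of Twist2, a transcription factor of mesenchymal cells, held 10 CpGs at 49.1%, 42.8%, 44.9% and 52.2%. Of the 23 autosomal stretches away from the listed genes, 2 held 2 or more TGCCGC matches in the searched window, against 6 of the 8 at listed genes.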
